A study of Caenorhabditis elegans with 8 samples.

Results

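The comparison described here set 3 libraries labelled hlh-2 RNAi against 2 control libraries, 5 of the 8 libraries of the series, assigned by their labels alone. RNA came from whole nematodes of N2, the wild-type reference strain of Caenorhabditis elegans, kept on bacteria that carry a feeding RNAi plasmid. The controls received L4440, the plasmid with no insert, and the treated animals a plasmid directed at hlh-2. The remaining 3 libraries, labelled lin-32 RNAi, came from N2 animals fed a plasmid directed at lin-32, and they are used here for the shared estimate of spread and as a second treatment. No group carries a mutation by its labels, and the age, stage, sex and number of animals behind a library are stated in no source used here. The question was which transcripts change when feeding RNAi against hlh-2 is applied. Of 46748 genes in the count table, 14272 passed a filter on low counts and were tested, and 29 of them differed between the groups.

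HLH-2 is the E protein of the worm, the counterpart of Daughterless in Drosophila. It is a basic helix-loop-helix (bHLH) factor that binds short DNA motifs called E-boxes as a dimer, either with itself or with a bHLH partner of narrower expression, such as LIN-32, the relative of Atonal that specifies touch and ray neurons. HLH-2 is known for its roles in neuron production, in the choice and function of the anchor cell and in the distal tip cells that lead the growing gonad. In feeding RNAi, double-stranded RNA made by bacteria is taken up from the gut and spreads to most tissues, and neurons are known to respond weakly.

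Levels are given as CPM, counts per 1000000 counts of a library after scaling by the TMM method, which are not divided by transcript length and so serve to compare one gene between libraries. The L4440 libraries held 22380739 and 27737470 counts and the libraries labelled hlh-2 RNAi 29783012 to 33317295, so each treated library was deeper than either control, and the part of depth in the results was not tested. Replicates within these groups differed by more than counting error, with a chi-square of 5.58 to 14.1 per degree of freedom. The spread was nevertheless small. Over 8573 genes with a mean of at least 5 CPM, the median absolute log2 difference was 0.0611 between the L4440 libraries, 0.0551 to 0.0644 within libraries labelled hlh-2 RNAi, and 0.0608 to 0.0693 across the groups. A typical gene thus differed between a treated and a control library about as much as between replicates. The median standard error of a log2 fold change fell from 0.39 for genes under 1 CPM to 0.18 at 1 to 10 CPM and 0.06 at 10 to 100 CPM. The labels do not say that replicates came from separate cultures, so the p-values reflect how these libraries vary, and that variation may be technical.

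The targeted transcript did not follow the label. In CPM, hlh-2 stood at 50.6 and 49 in the L4440 libraries and at 49, 48.9 and 53.9 in libraries labelled hlh-2 RNAi. Those groups overlap, and the log2 difference, 0.025 ± 0.15 (SE), had an edgeR adjusted p of 0.99. The 95% interval of the fold ran from 0.816 to 1.27. With the label lin-32 RNAi, hlh-2 stood at 23, 27.8 and 15.6 CPM, below every other library. Whether reads from ingested double-stranded RNA add to these counts was not tested. Groups are therefore named by their labels, and each direction below is a direction between libraries so labelled.

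The genes that encode partners of HLH-2 were examined next. Of 14 partner genes on the list, 8 passed the filter. None passed the test in edgeR, DESeq2 or limma-voom. At an unadjusted p under 0.05, 1 was higher, against 3.14% of all genes tested. Their median was -0.065 and their mean 0.018 (log2). The scarce lin-32 transcript was counted 33 and 39 times in L4440, and 73, 114 and 67 times in libraries labelled hlh-2 RNAi, which is 1.5 and 1.42 against 2.41, 3.40 and 2.06 CPM. Its groups do not overlap, and its log2 fold change of 0.85 ± 0.25 (SE) did not pass (edgeR adjusted p = 0.456, unadjusted p = 0.00449). With the label lin-32 RNAi, lin-32 stood at 0.976, 0.678 and 0.764 CPM. The achaete-scute relative hlh-14, which acts in neuroblast lineages, read 2.09 and 2.29 CPM in L4440 and 2.34, 3.31 and 3.04 CPM in libraries labelled hlh-2 RNAi, a log2 difference of 0.40 ± 0.20 (SE, edgeR adjusted p = 0.755). The other 6 partner genes tested overlapped between the groups.

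**Figure D1:**
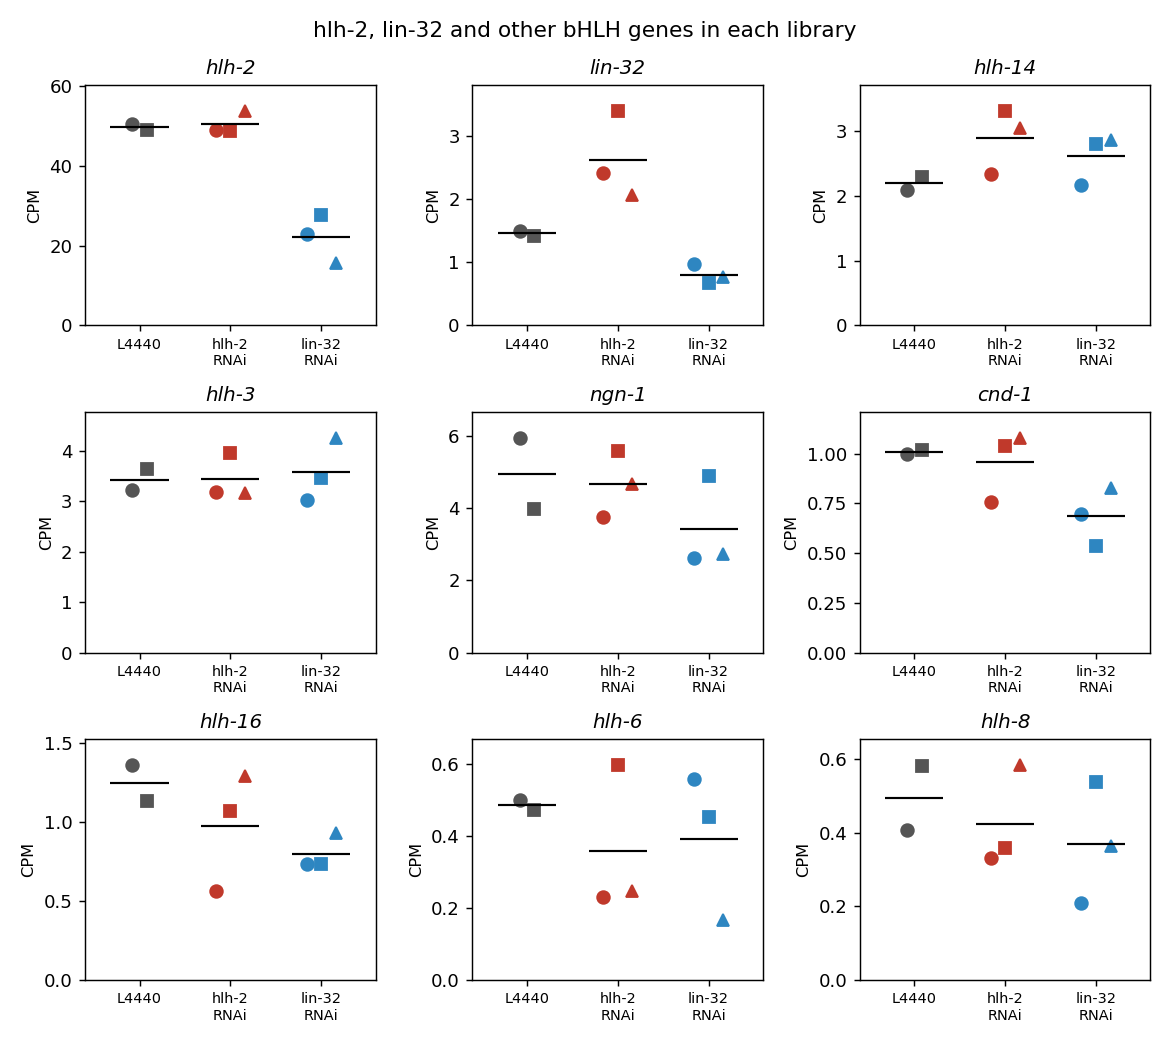
Level in CPM (vertical axis of each panel, from 0) of hlh-2 and of the 8 tested partner genes in each library. Grey marks L4440, red hlh-2 RNAi and blue lin-32 RNAi. Circles, squares and triangles are replicates 1, 2 and 3, and bars are group means. The hlh-2 values of the libraries labelled hlh-2 RNAi lie among those of L4440, and those labelled lin-32 RNAi lie at 15.6 to 27.8 CPM.

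Genes placed downstream of HLH-2 in the anchor cell, the distal tip cell, the mesoderm and dying neurons were examined in the same way. Of 15 such genes 14 were tested. None passed in edgeR, DESeq2 or limma-voom, with a median of 0.02 (log2) and values from -0.35 to 0.58. Of them 0 had an unadjusted p under 0.05, against 6.78% of all genes tested. In the libraries labelled lin-32 RNAi, where hlh-2 was lower, their median against the same controls was -0.25 (log2). For the partner genes it was -0.45, against -0.065 in this comparison. Whether these medians go with the hlh-2 level was not tested. The cell death regulator ces-1, which overlaps cpn-1 on the other strand, read 0.590 and 0.617 CPM in L4440 and 0.957, 0.805 and 0.952 CPM in libraries labelled hlh-2 RNAi. Its groups do not overlap, and its log2 difference of 0.58 ± 0.29 (SE) had an edgeR adjusted p of 0.763. The fibroblast growth factor receptor gene egl-15 differed by 0.28 ± 0.17 (log2, SE, edgeR adjusted p = 0.795).

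Few genes passed the threshold in this comparison. The 29 that passed make up 0.203% of those tested, 7 higher (0.049%) and 22 lower (0.154%) in libraries labelled hlh-2 RNAi. At an unadjusted p under 0.05 there were 968 genes, 6.78% of those tested, 448 higher (3.14%) and 520 lower (3.64%). Values of all genes tested were above 0 in 49.7% and below 0 in 50.3%. Over 2-fold stood 97 genes (0.68%), 3 of them among the 29, and over 1.5-fold 546 genes (3.83%), 16 of them among the 29. Treated and control values were fully separate in 24.1% of all genes tested, and in each of the 29. All but 1 are annotated as protein coding. They were sorted into lysozyme, lectin and other genes named here as secreted defence proteins, proteases, and enzymes of phosphagen, sulfur and glyoxylate metabolism. Conjugating and redox enzymes, and genes without a family name, make up the rest. This grouping was made after the values were seen. Chromosome V carries 15 of the 29, including 6 of the 7 higher genes, and 2752 of the 14272 genes tested. Chromosome III carries none of the 29, among 2232 genes tested, of which 143 had an unadjusted p under 0.05.

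**Figure D2:**
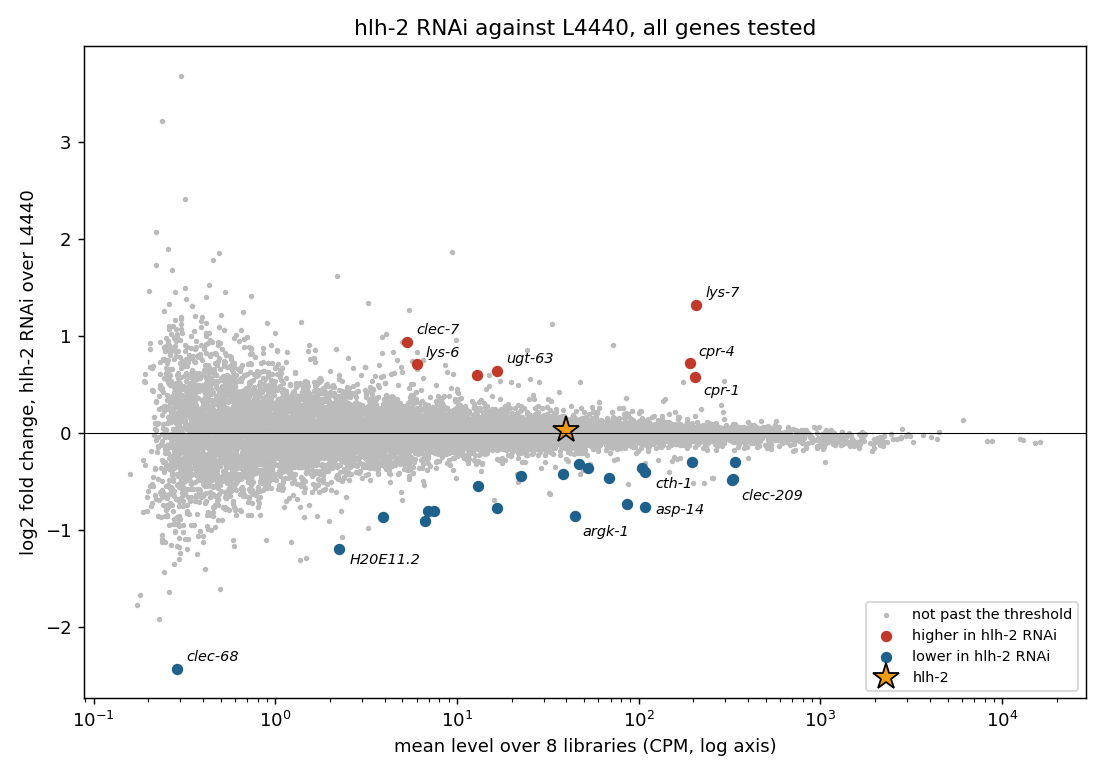
Log2 fold change, hlh-2 RNAi over L4440 (vertical axis), against the mean level over the 8 libraries in CPM (horizontal, log axis) for the 14272 genes tested. Red and blue points are the 7 higher and 22 lower genes, grey points did not pass, and the star is hlh-2, which sits at 0.025.

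Control libraries set a limit on the whole set. Without L4440 replicate 1 the number of genes that passed was 5, and without L4440 replicate 2 it was 3, in fits where the lone control is assumed to vary like the other groups. It was 15 without replicate 2 and 13 without replicate 3 of hlh-2 RNAi. The arginine kinase gene argk-1 and both genes named clec-209 passed in each of those fits.

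Lysozyme, lectin and other genes grouped here as secreted defence proteins were the most numerous group, with 3 higher and 7 lower. The lectin genes were placed here by family, and a role in defence was not tested. The gene lys-7, whose lysozyme acts in intestinal immunity, read 122 and 89.7 CPM in L4440 and 331, 250 and 207 CPM in libraries labelled hlh-2 RNAi. Every treated library lay above both controls, and the fold was 2.49 (log2 1.32 ± 0.19, SE, edgeR adjusted p = 0.016). The scarcer lysozyme gene lys-6 rose from 3.85 and 4.36 CPM to 7.49, 6.65 and 6.14 CPM, a log2 difference of 0.71 ± 0.13 (SE, edgeR adjusted p = 0.048). Its call is marginal, and it was lost when any 1 of the 8 libraries was left out. The third raised gene, clec-7, encodes a protein with a C-type lectin domain, the sugar-binding fold shared by many secreted worm proteins. It rose from 3.40 and 3.45 CPM to 7.39, 6.50 and 5.84 CPM, 1.92-fold (edgeR adjusted p = 0.018).

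The 7 lower genes of this group include 5 more lectin genes. The genes WBGene00021224 and WBGene00018910, both named clec-209 and on chromosome V (starts 2351676 and 2459637, plus strand, WBcel235), share a name and lie at nearly the same level in every library. Whether their sequences let reads be shared was not tested. Both are included in every count of genes given here, but they may not be separate evidence. The first fell from 385 and 404 CPM to 280, 283 and 279 CPM, and the second from 386 and 410 CPM to 284, 287 and 287 CPM. The treated values of each lie within a narrow band, and the log2 fold changes were -0.49 ± 0.035 and -0.48 ± 0.039 (SE), with edgeR adjusted p-values of 4.4e-05 and 0.00014. The clec-66 gene fell from 27.5 and 26.8 CPM to 20.4, 20.6 and 18.9 CPM, and clec-258 from 5.53 and 6.14 CPM to 3.04, 3.01 and 3.53 CPM. Their groups do not overlap, with log2 fold changes of -0.45 ± 0.072 and -0.87 ± 0.15 (SE). The clec-68 gene rests on few reads, 18 and 16 in L4440 and 3, 5 and 4 in libraries labelled hlh-2 RNAi, and its log2 difference was -2.43 ± 0.41 (SE, edgeR adjusted p = 0.035).

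The remaining 2 genes of this group encode small secreted proteins. The sysm-1 gene, whose product is a peptide of the ShK toxin-like class induced by bacterial infection, fell from 122 and 120 CPM to 68.5, 83.2 and 67.3 CPM, 1.66-fold (edgeR adjusted p = 0.025). The saposin-like gene spp-17, of a family that includes pore-forming antimicrobial proteins, fell from 220 and 226 CPM to 182, 187 and 176 CPM, a smaller change of -0.30 ± 0.048 (log2, SE, edgeR adjusted p = 0.025). In both, the lowest control lies above the highest treated library. Apart from the clec-209 pair, the genes of this group lost their calls when either control was left out, with edgeR adjusted p-values of 0.076 to 0.527 without L4440 replicate 1 and 0.332 to 0.523 without replicate 2. Calls were also lost without replicate 1 of hlh-2 RNAi (lys-6, clec-68 and clec-258, 0.101 to 0.108), replicate 2 (these 3 with clec-7, clec-66 and spp-17, 0.068 to 0.186) or replicate 3 (these 3 with clec-66, spp-17 and sysm-1, 0.053 to 0.111). The clec-68 and clec-258 calls were lost without replicate 2 or 3 of lin-32 RNAi as well (0.058 to 0.088). In a fit of only the 5 libraries of this comparison, lys-6, clec-68 and clec-258 did not pass (edgeR adjusted p from 0.053 to 0.125).

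Of the 3 protease genes that passed, 2 of the cathepsin B-like family rose and 1 of the aspartyl family fell. The cathepsin B-like genes cpr-4 and cpr-1 encode cysteine proteases made in the intestine. The cpr-4 gene rose from 122 and 123 CPM to 228, 181 and 197 CPM, and cpr-1 from 146 and 153 CPM to 249, 193 and 224 CPM. In both, replicate 1 of hlh-2 RNAi is the highest library of the comparison, and the folds were 1.64 and 1.49 (edgeR adjusted p = 0.0091 and 0.020). The aspartyl protease gene asp-14 fell from 163 and 147 CPM to 78.8, 101 and 93.8 CPM, 1.70-fold (edgeR adjusted p = 0.013), and here replicate 1 is the lowest library. All 3 lost their calls without L4440 replicate 1 (0.138 to 0.333) or 2 (0.14 to 0.35), and cpr-1 also without replicate 3 of hlh-2 RNAi (edgeR adjusted p = 0.053).

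The 4 metabolic enzyme genes that passed were all lower. The argk-1 gene encodes an arginine kinase, which stores high-energy phosphate on arginine. It fell from 68.7 and 72.0 CPM to 39.6, 38.6 and 37.9 CPM, 1.82-fold, with the smallest p of the comparison (log2 -0.86 ± 0.058, SE, edgeR adjusted p = 4.1e-05). The 3 treated values lie within 2 CPM of each other, and the 95% interval of the fold is 0.504 to 0.6. In sulfur metabolism, cth-1, whose product cleaves cystathionine to cysteine, fell from 137 and 131 CPM to 110, 101 and 94.5 CPM, a log2 difference of -0.40 ± 0.054 (SE, edgeR adjusted p = 0.013). The cysteine synthase-like gene cysl-2, which responds to cyanide and hypoxia signalling, fell from 119 and 125 CPM to 93.7, 97.6 and 94.4 CPM, a log2 difference of -0.36 ± 0.037 (SE, edgeR adjusted p = 0.0015). It overlaps vnut-1 on the other strand, from which an unstranded library cannot tell it apart.

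The glyoxylate cycle gene icl-1, whose product lets the worm make sugar from fat, read 389 and 395 CPM in L4440 and 298, 323 and 333 CPM in libraries labelled hlh-2 RNAi. Its fall of 1.23-fold (edgeR adjusted p = 0.016) is among the smallest that passed, in a gene whose controls differ little. Without L4440 replicate 2 argk-1 alone of these 4 passed, and the others had edgeR adjusted p-values of 0.094 to 0.35. The cth-1 and icl-1 genes did not pass without L4440 replicate 1 (0.192 each) or replicate 2 of hlh-2 RNAi (0.059 to 0.066) either.

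Conjugating and redox enzymes were split. UDP-glucuronosyltransferases, here ugt-63 and ugt-32, form a family that attaches sugars to small lipophilic compounds. The ugt-63 gene rose from 10.6 and 10.7 CPM to 15.3, 17.6 and 16.7 CPM, 1.56-fold, and ugt-32 from 9.75 and 7.81 CPM to 14, 12.8 and 12.8 CPM, 1.51-fold (edgeR adjusted p = 0.013 and 0.035). The glutathione S-transferase gene gst-13 fell from 62.3 and 61.5 CPM to 49.4, 49.1 and 46.5 CPM, a log2 difference of -0.36 ± 0.059 (SE, edgeR adjusted p = 0.032). The short-chain dehydrogenase gene dhs-25 fell from 77.4 and 89.9 CPM to 63.9, 57.2 and 61.0 CPM, a log2 difference of -0.47 ± 0.068 (SE, edgeR adjusted p = 0.016). None of the groups overlap. None of the 4 passed without L4440 replicate 2 (0.291 to 0.505), and dhs-25 alone passed without L4440 replicate 1 (0.064 to 0.38 for the others). Without replicate 2 or 3 of hlh-2 RNAi ugt-63 alone passed (0.052 to 0.095 for the others). The ugt-32 call was lost without replicate 1 of hlh-2 RNAi, and without replicate 2 or 3 of lin-32 RNAi, and that of gst-13 without the latter (0.054 to 0.071). In the fit of only the 5 libraries of this comparison, ugt-32 did not pass (edgeR adjusted p = 0.103).

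The last 8 genes, all lower, have no family in common. The secreted endoribonuclease gene endu-2 fell from 43.7 and 46.8 CPM to 33.3, 36.8 and 31.7 CPM, 1.33-fold, and overlaps kqt-2 on the other strand. F48E3.2, which overlaps gly-12 on the other strand, fell from 10.4 and 10.2 CPM to 5.91, 5.75 and 4.82 CPM, 1.87-fold (edgeR adjusted p = 0.0063). F21C10.9, which overlaps F21C10.10 on the other strand, fell from 11.5 and 11.7 CPM to 7.69, 5.90 and 6.39 CPM, 1.75-fold. The pseudogene Y39B6A.21 fell by the same factor, from 9.61 and 11 CPM to 6.24, 5.84 and 5.62 CPM. F22B8.7 fell by 0.32 on the log2 scale, C17H12.6 by 0.78, K11H12.4 by 0.55 and H20E11.2 by 1.2. The H20E11.2 counts were 94 and 98 in L4440 and 57, 67 and 39 in libraries labelled hlh-2 RNAi. None of these 8 passed without L4440 replicate 1 (edgeR adjusted p from 0.076) or replicate 2 (from 0.14), and F48E3.2 alone passed without replicate 3 of hlh-2 RNAi. Calls lost without 1 other library (0.058 to 0.13) were those of F21C10.9, Y39B6A.21, H20E11.2 and K11H12.4 without replicate 2 and C17H12.6 without replicate 1 of hlh-2 RNAi. H20E11.2 and K11H12.4 lost theirs without replicate 2 or 3 of lin-32 RNAi, and C17H12.6 without the latter. In the fit of only the 5 libraries of this comparison, endu-2, F22B8.7, H20E11.2 and K11H12.4 did not pass (edgeR adjusted p from 0.057 to 0.097).

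**Figure D3:**
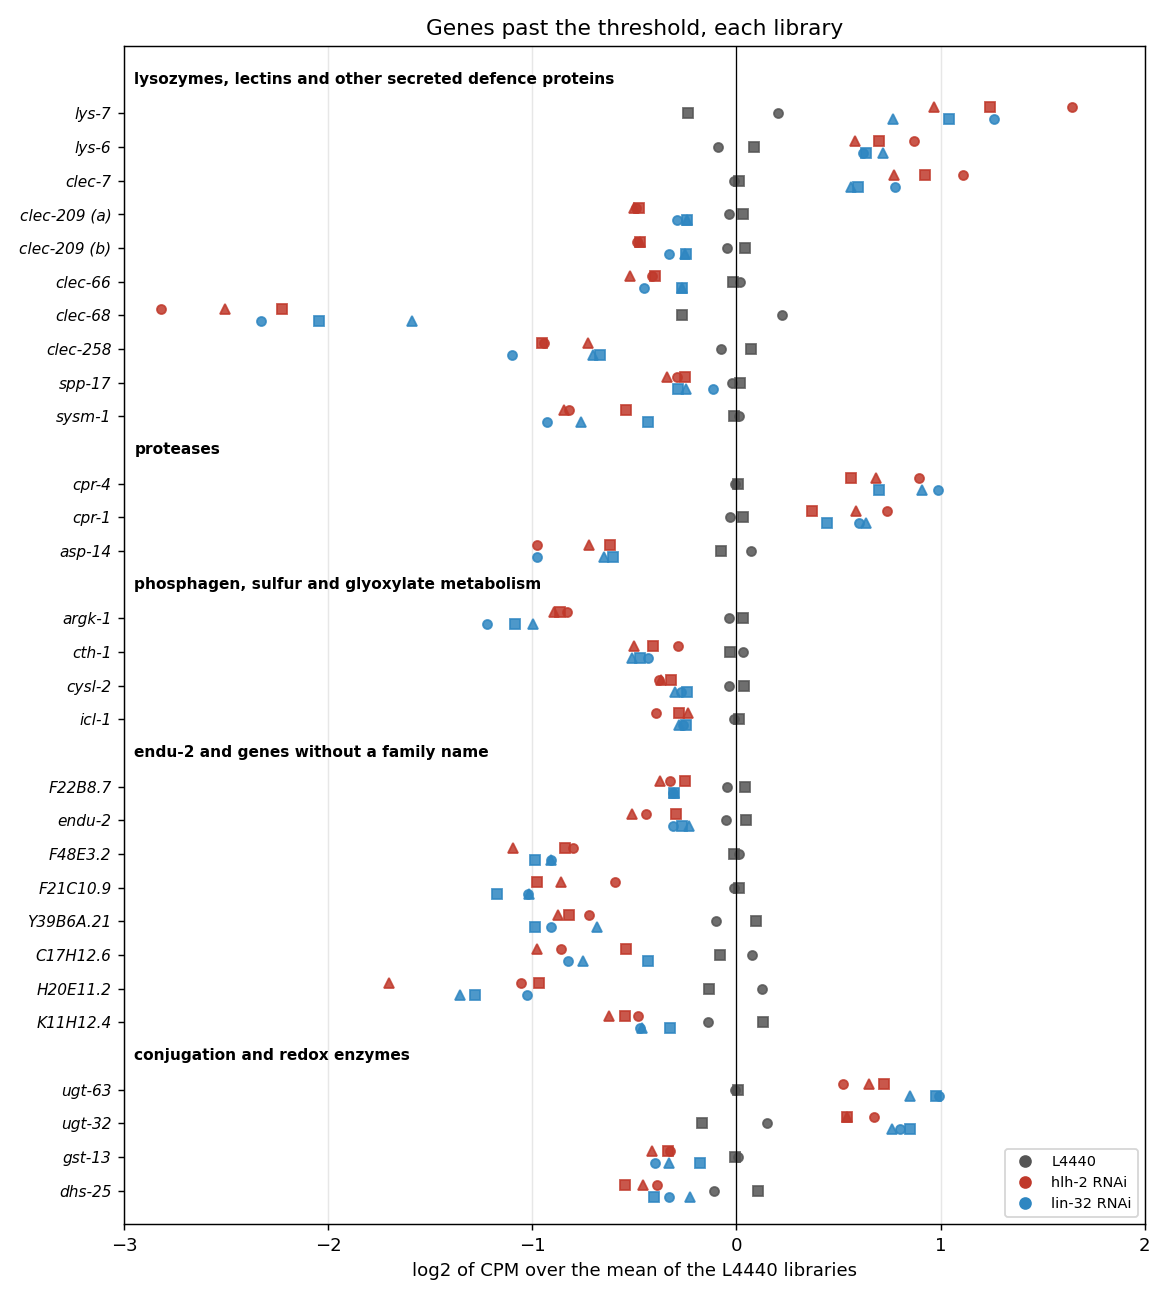
Log2 of the CPM of each library over the mean of the L4440 libraries (horizontal axis) for the 29 genes that passed, by group. Grey marks L4440, red hlh-2 RNAi and blue lin-32 RNAi, and circles, squares and triangles are replicates 1, 2 and 3. The names clec-209 (a) and (b) stand for WBGene00021224 and WBGene00018910. The red points of each gene lie on 1 side of both grey points.

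The treated replicates were not equally far from the controls. Of the 7 raised genes, 6 were highest in replicate 1 of hlh-2 RNAi. Of the 22 lowered genes, 14 were lowest in replicate 3. The coefficient of variation of a gene that passed had a median of 3.54% over the L4440 libraries and 7.65% over the libraries labelled hlh-2 RNAi. These medians rest on 2 and 3 libraries and on genes selected by the test. Over 8573 genes, the median absolute log2 difference was 0.0611 within L4440 and 0.0551 to 0.0644 within hlh-2 RNAi. Genes over 1.5-fold from L4440 replicates 1 and 2 numbered 103 and 76 for replicate 1 of hlh-2 RNAi. They numbered 34 and 50 for replicate 2, and 77 and 58 for replicate 3. Between the L4440 libraries there were 29.

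The families of the genes that passed were then followed beyond those members, with counts from edgeR unless another tool is named. They were taken up because they hold genes that passed, so such counts are not evidence about a family. Of 11 lysozyme genes tested, 2 rose, against 0.049% of all genes tested. Of the 11, 9 had a log2 fold change above 0, against 49.7% of all genes tested. The median was 0.21, against -0.00068 over all genes tested. The next 2 by p, lys-5 and lys-4, did not pass (edgeR adjusted p = 0.14 each). The lys-5 gene read 3.49 and 3.09 CPM in L4440 and 5.31, 5.13 and 4.73 CPM in libraries labelled hlh-2 RNAi, and lys-4 126 and 134 against 227, 165 and 171 CPM. Both lie above both controls in each treated library, at log2 differences of 0.62 ± 0.13 and 0.52 ± 0.11 (SE). Without replicate 1 of hlh-2 RNAi lys-4 passed at 0.37 (log2, edgeR adjusted p = 0.039). Leaving out L4440 replicate 1 gave a family median of 0.48, and leaving out replicate 2 one of 0.31.

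Of 103 C-type lectin genes tested, 1 rose and 5 fell, against 0.049% and 0.154% of all genes tested. The median of the family was -0.045 and the mean 0.00071, opposite in sign, and the median changed sign to 0.014 without L4440 replicate 2. Just outside the threshold stood clec-50, with 468 and 446 CPM in L4440 and 365, 398 and 381 CPM in libraries labelled hlh-2 RNAi, and clec-5, with 1.90 and 1.31 against 4.62, 3.34 and 4.09 CPM. Their log2 differences were -0.26 ± 0.047 and 1.34 ± 0.25 (SE, edgeR adjusted p = 0.050, above the threshold before rounding, and 0.066). Both passed without replicate 2 of lin-32 RNAi (edgeR adjusted p = 0.036 and 0.034). Of 32 infection response genes tested, sysm-1 alone passed in edgeR and limma-voom, and 3 fell with DESeq2. At an unadjusted p under 0.05, 4 were higher and 9 lower, against 3.14% and 3.64% of all genes tested. The irg-6 gene read 1.95 and 2.83 CPM against 0.858, 0.864 and 1.2 CPM (log2 -1.31 ± 0.24, SE, edgeR adjusted p = 0.050, above the threshold before rounding). Of 41 saposin-like and antimicrobial peptide genes, spp-17 alone fell, and the family's median was -0.061.

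Of 7 cathepsin B-like protease genes tested, 2 rose, against 0.049% of all genes tested, and the family's values ran from -0.16 to 0.72. The cpr-5 gene overlapped between the groups, at 97.3 and 121 CPM in L4440 and 162, 116 and 143 CPM in libraries labelled hlh-2 RNAi (log2 0.35 ± 0.15, SE, edgeR adjusted p = 0.71). Of 11 aspartyl protease genes tested, 5 had values above 0 and 6 below, and asp-14 alone passed in edgeR. With DESeq2 1 rose and 2 fell, and with limma-voom 2 fell. The intestinal enzyme gene asp-1 read 1230 and 1170 CPM against 958, 953 and 1010 CPM, a log2 difference of -0.30 ± 0.057 (SE, edgeR adjusted p = 0.066). It passed in the fit of the 5 libraries of this comparison (edgeR adjusted p = 0.022), with limma-voom (adjusted p = 0.049), and without replicate 1 or 3 of lin-32 RNAi (edgeR adjusted p = 0.040 and 0.018). The asp-13 gene read 198 and 189 against 243, 214 and 226 CPM, 0.24 ± 0.056 (log2, SE, edgeR adjusted p = 0.235). Of the 11 genes of this family, 2 were higher and 4 lower without overlap between the groups. Over all genes tested, the groups were separate in 24.1%.

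Among 58 UDP-glucuronosyltransferase genes tested, 2 rose and none fell, against 0.049% and 0.154% of all genes tested. Their median was 0.022. The next by p was ugt-66, at 2.81 and 2.98 CPM in L4440 and 3.99, 4.92 and 6.57 CPM in libraries labelled hlh-2 RNAi (log2 0.83 ± 0.22, SE, edgeR adjusted p = 0.363). None of 61 cytochrome P450 genes, the oxidising step before conjugation, passed in edgeR, DESeq2 or limma-voom, and their median was 0.083. At an unadjusted p under 0.05, 3 were higher and 3 lower, against 3.14% and 3.64% of all genes tested. Glutathione S-transferase genes lay mostly below 0. Of 39 tested, gst-13 fell, 29 had values below 0 and 10 were lower at an unadjusted p under 0.05, against 3.64% of all genes. The family's median was -0.16, and -0.093 without L4440 replicate 2 and -0.095 without replicate 2 of hlh-2 RNAi. The next member, gst-38, read 2.90 and 4.18 against 1.52, 2.18 and 1.38 CPM (log2 -1.07 ± 0.22, SE, edgeR adjusted p = 0.104).

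All 5 arginine kinase genes had values below 0, from -0.86 for argk-1 to -0.039, with a median of -0.23. W10C8.5 read 47.2 and 44.8 CPM in L4440 and 39.2, 36.1 and 37.7 CPM in libraries labelled hlh-2 RNAi, which do not overlap (log2 -0.29 ± 0.056, SE, edgeR adjusted p = 0.087). F32B5.1 read 27.3 and 26.4 CPM against 25.2, 21.9 and 21.6 CPM (log2 -0.23 ± 0.097, SE, edgeR adjusted p = 0.703). In the transsulfuration and cysteine list, by contrast, 14 of 27 genes tested had values above 0, and the median was 0.0072 and the mean -0.019. Apart from cth-1 and cysl-2 none passed. The S-adenosylmethionine synthetase gene sams-1 read 109 and 105 CPM against 119, 118 and 123 CPM (log2 0.17 ± 0.064, SE, edgeR adjusted p = 0.664).

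Several genes that passed are close neighbours, a pattern seen after the values were known. On chromosome V (WBcel235, plus strand), F22B8.7 lies at 16094584 to 16097320, cth-1 at 16100680 to 16102750 and argk-1 at 16103894 to 16105952. The gaps from argk-1 are 1143 bases to cth-1 and 6573 bases to F22B8.7. These 3 genes fell by 0.32, 0.40 and 0.86 (log2) in that order along the chromosome. The only other gene tested within 15 kb of argk-1 is the chemoreceptor gene str-7, on the minus strand between F22B8.7 and cth-1. It was picked after its values were seen, and read 7.89 and 6.35 CPM in L4440 and 6.30, 5.27 and 3.99 CPM in libraries labelled hlh-2 RNAi (log2 -0.45 ± 0.18, SE, edgeR adjusted p = 0.672). The remaining 8 annotated genes of the window had too few counts to be tested.

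A second pair of neighbours lies on chromosome IV. C17H12.6 (6821065 to 6822506, minus strand) and H20E11.2 (6827777 to 6829645, plus strand) are 5270 bases apart. C17H12.6 read 24.9 and 22.3 CPM in L4440 and 13, 16.2 and 12 CPM in libraries labelled hlh-2 RNAi, and H20E11.2 4.26 and 3.56 against 1.88, 2.0 and 1.2 CPM. Around them, C17H12.8 and H20E11.3 had log2 differences of -0.40 ± 0.11 and -0.31 ± 0.10 (SE) and H20E11.1 one of 0.17 ± 0.087 (SE). None of these 3 passed (edgeR adjusted p = 0.43, 0.556 and 0.768), and the 7 genes tested in this window lie on both sides of 0.

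**Figure D4:**
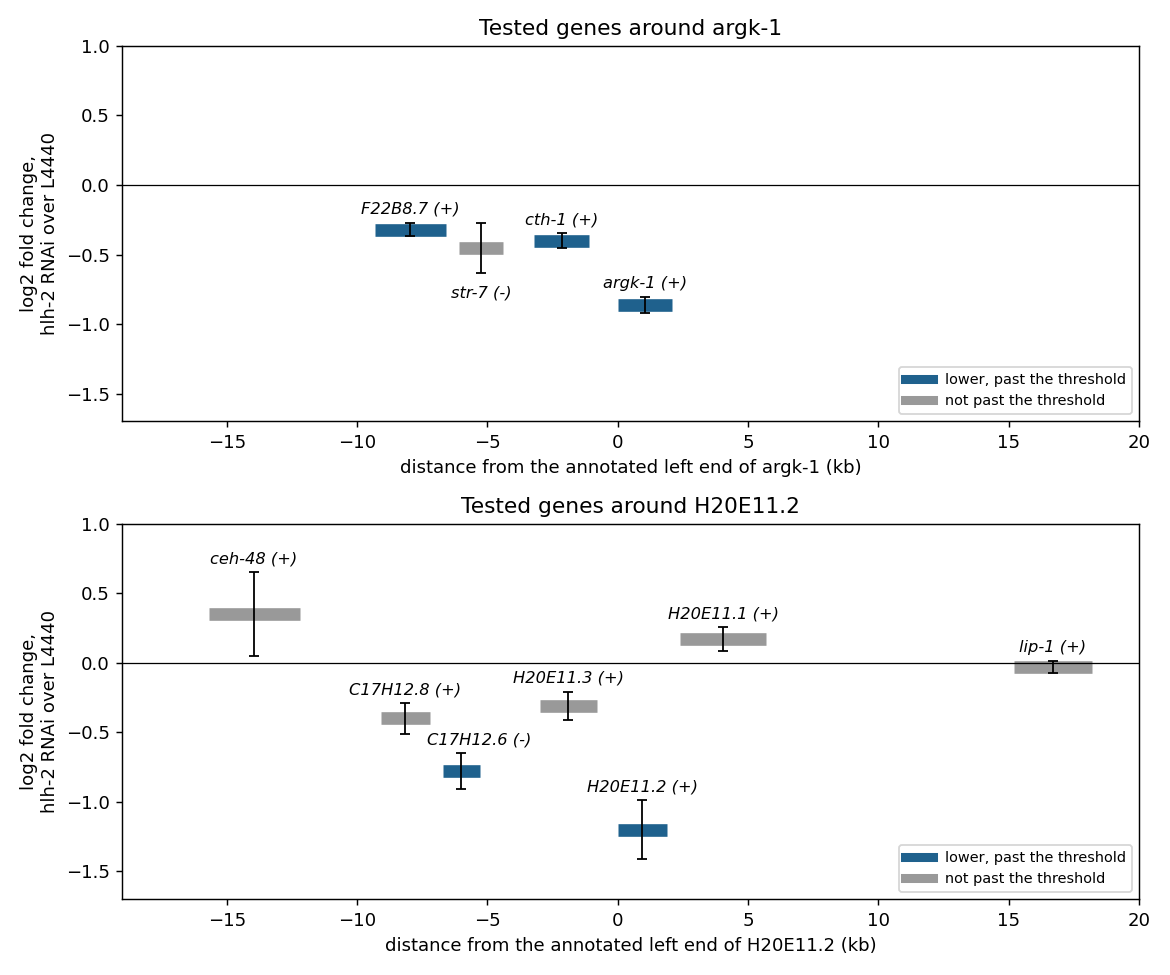
Log2 fold change, hlh-2 RNAi over L4440 (vertical axis), of the tested genes within 15 kb of argk-1 (top) and H20E11.2 (bottom), each drawn at its distance in kb from the annotated left end of that gene (horizontal axis) with the strand in brackets. Blue bars passed the test, grey bars did not, bar length is gene length, and whiskers are 1 SE. The 4 genes around argk-1 lie between -0.32 and -0.86.

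Tissue marker lists had medians close to 0 in the fit of all libraries. In bulk RNA of whole animals, fewer cells of a type and less RNA per cell cannot be told apart. Of 15 tissue lists, the medians ran from -0.058 to 0.07, and in 14 of them no member passed in edgeR, DESeq2 or limma-voom. Members at an unadjusted p under 0.05 numbered 0 to 3 in each of those 14, against 6.78% of all genes tested. The exception is the intestine, where cpr-1 and cpr-4 rose among 27 genes tested, against 0.049% of all genes tested. The list's median was 0.017. In the intestine list asp-1 fell as well with DESeq2 and limma-voom. Pan-neuronal and synaptic genes, which would include the neurons that depend on HLH-2, had a median of 0.035 over 22 genes, with 14 above 0. The synaptic vesicle priming gene unc-13 had the lowest p among them, at 8.57 and 8.53 CPM in L4440 and 9.70, 9.80 and 10.2 CPM in libraries labelled hlh-2 RNAi (log2 0.21 ± 0.091, SE, edgeR adjusted p = 0.711). Touch receptor neuron genes had a median of -0.047 and a mean of 0.10 over 13 genes, and sensory cilium genes a median of -0.018 over 41. Single libraries moved such medians, which ran from -0.15 to 0.16 over the 15 lists with 1 library left out. The sensory cilium median was -0.15 without L4440 replicate 2 and -0.094 without replicate 3 of hlh-2 RNAi, and that of glia, 0.07, was 0.16 and -0.10 without L4440 replicates 1 and 2. The touch receptor median was 0.011 without replicate 3 of hlh-2 RNAi. Anchor cell and somatic gonad genes, the site of known HLH-2 functions, had a median of 0.02 and a mean of -0.011 over 25 genes, with 0 at an unadjusted p under 0.05.

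**Figure D5:**
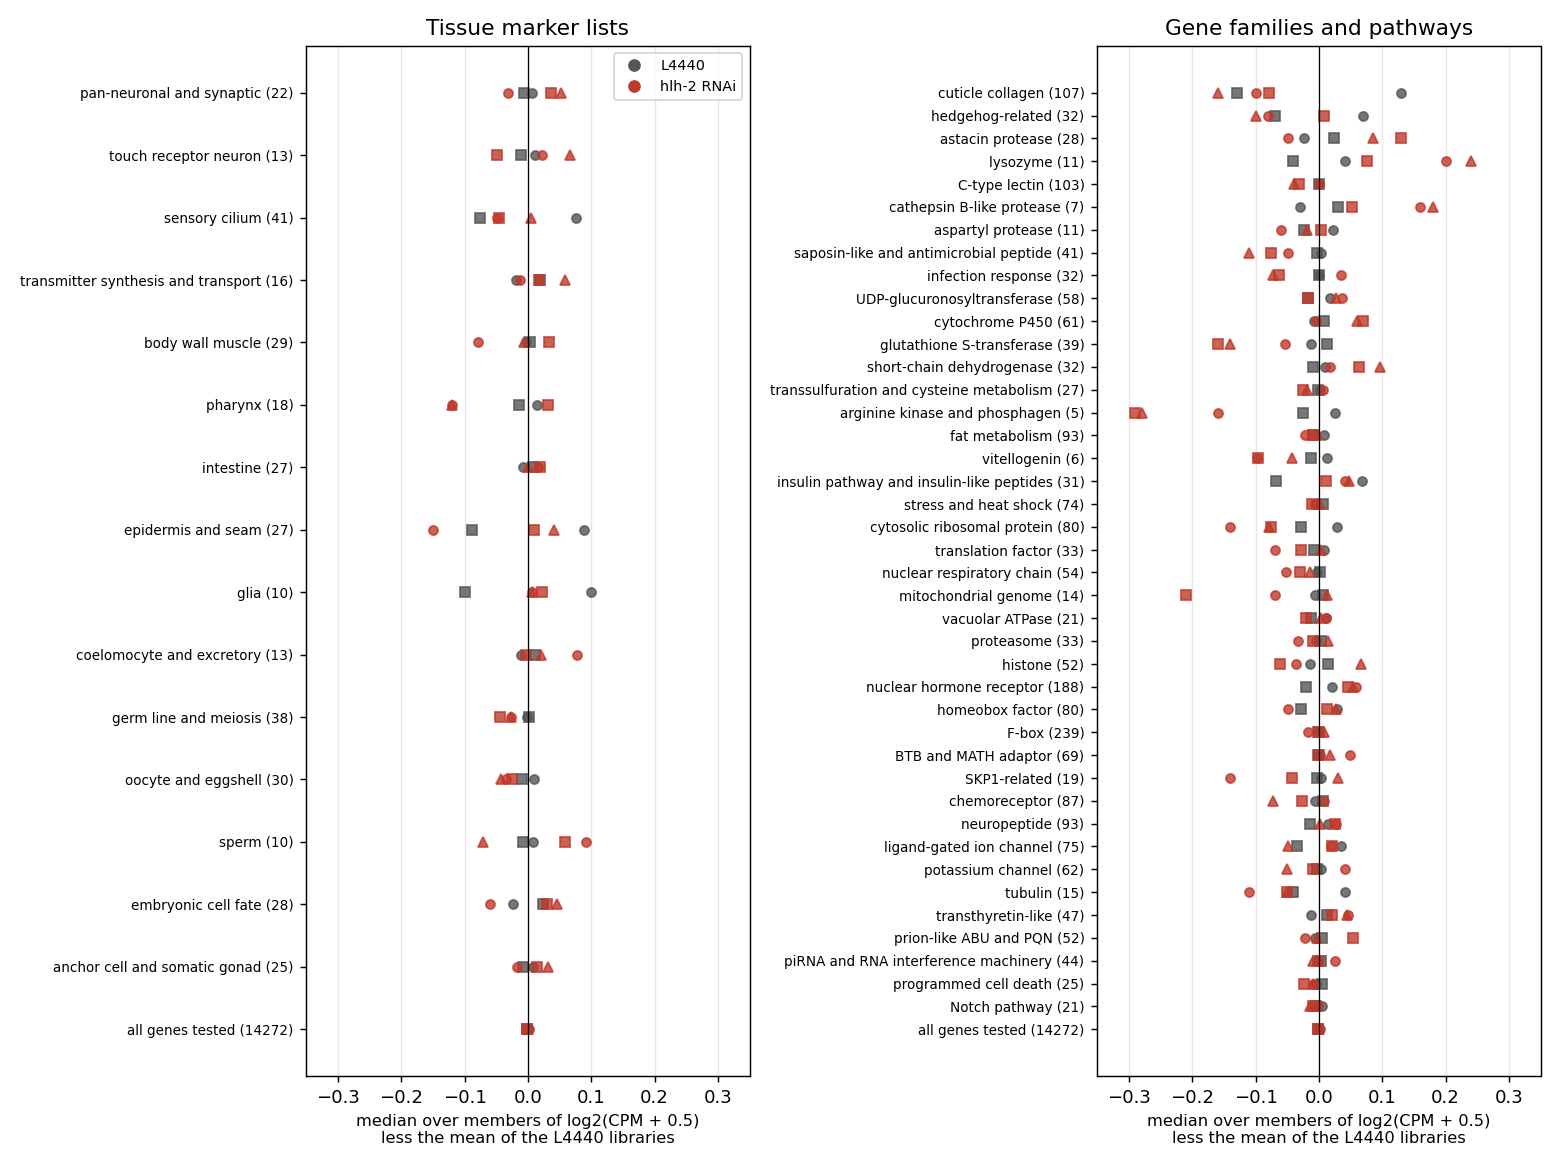
Median over the tested members of each list (number in brackets) of log2(CPM + 0.5) less the mean of the L4440 libraries (horizontal axis), for tissue markers (left) and for families and pathways (right). Grey marks L4440 and red hlh-2 RNAi, and circles, squares and triangles are replicates 1, 2 and 3. The 2 grey points of a list mirror each other by construction, and their distance shows how far the controls differ, as in the cuticle collagens at 0.13 and -0.13.

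Germ line and oocyte markers had treated medians below both controls in all 3 libraries, but by little. Such separation was not rare. Of 58 lists with at least 5 genes tested, 10 lay wholly below both controls and 5 wholly above. Single genes were separate in 24.1% of all genes tested. The median log2 fold change was -0.034 over 38 germ line and meiosis genes and -0.036 over 30 oocyte and eggshell genes. With libraries scaled by size alone these medians were -0.007 and -0.0088. No member passed in edgeR, DESeq2 or limma-voom. At an unadjusted p under 0.05, 3 and 1 genes were lower, against 3.64% of all genes tested. The 6 yolk protein (vitellogenin) genes had a median of -0.083, with values from -0.11 to -0.057. The vit-2 gene, which overlaps C42D8.9 on the other strand, read 16100 and 15800 CPM in L4440 and 14800, 14700 and 14900 CPM in libraries labelled hlh-2 RNAi (log2 -0.11 ± 0.047, SE, edgeR adjusted p = 0.717).

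Of 58 lists with at least 5 genes tested, 52 had a median within 0.1 of 0. The other 6 were the lysozymes, the glutathione S-transferases, the arginine kinases, the cuticle collagens, the hedgehog-related genes and the mitochondrial genome. The collagens had a median of -0.12 over 107 genes. None passed in edgeR or limma-voom and 1 fell with DESeq2. An unadjusted p under 0.05 was found for 10, against 6.78% of all genes tested. But the controls themselves stood at 0.13 and -0.13, and the median became 0.028 without L4440 replicate 1. Hedgehog-related genes behaved likewise, at -0.11 over 32 genes and 0.07 without that library. The mitochondrial list, at -0.15 over 14 genes, was -0.064 without replicate 2 of hlh-2 RNAi.

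Abundant transcripts had values slightly below 0 as a class. Of 80 cytosolic ribosomal protein genes tested, 79 had values below 0, and the median was -0.095. None passed in edgeR or limma-voom, and 4 fell with DESeq2. At an unadjusted p under 0.05, 37 were lower, against 3.64% of all genes tested. Summed over the list, they took 101000 and 96600 CPM in L4440 and 89600, 93500 and 93700 CPM in libraries labelled hlh-2 RNAi, which do not overlap. The median was -0.069 with libraries scaled by size alone and -0.066 without L4440 replicate 1. Of 126 genes with a mean of at least 1000 CPM, 49 are on this list. The other 77 had a median of -0.046, with 64 below 0 and 8 lower at an unadjusted p under 0.05, and those 49 a median of -0.10. The part of level in the list's median was not tested.

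Genes with large differences that did not pass were also present. Among genes that did not pass, with a mean of at least 5 CPM and no overlap, the largest positive values were those of oac-14, an acyltransferase family gene, dhs-26 and F14H12.3. The oac-14 gene read 2.68 and 2.58 CPM in L4440 and 9.96, 4.53 and 4.45 CPM in libraries labelled hlh-2 RNAi (log2 1.26 ± 0.39, SE, edgeR adjusted p = 0.534). The dhs-26 gene, which overlaps ZK816.1 on the other strand, read 16.1 and 18 against 21, 32.8 and 57.3 CPM (edgeR adjusted p = 0.617). In both, 1 treated library stands well above the other 2. F14H12.3, which overlaps F14H12.9 on the other strand, had a log2 difference of 0.96 ± 0.26 (SE, edgeR adjusted p = 0.43). The largest negative values were those of F55G11.8 at -0.69 ± 0.17, rips-1, which overlaps cysl-3 on the other strand, at -0.63 ± 0.20 and dod-24 at -0.62 ± 0.15 (log2, SE, edgeR adjusted p = 0.274, 0.554 and 0.232). Without replicate 1 of hlh-2 RNAi rips-1 passed at -0.90 (log2, edgeR adjusted p = 0.039).

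The 29 genes were finally set beside the other treatment. The comparison of the libraries labelled lin-32 RNAi with L4440 uses the same 2 control libraries, so likeness between the comparisons is not independent. The difference is tested by the direct contrast of the treatments. It compares the means of the RNAi groups alone, but its spread is estimated from all 8 libraries, L4440 included. In that contrast 58 genes passed, 0.406% of those tested. Of the 29 genes, 2 passed, and they are the clec-209 pair. WBGene00021224 read 322, 333 and 334 CPM in the libraries labelled lin-32 RNAi, between the values of the other groups, and its log2 difference, hlh-2 RNAi less lin-32 RNAi, was -0.23 ± 0.032 (SE, edgeR adjusted p = 0.00731). For WBGene00018910 the values were 316, 335 and 334 CPM and the difference -0.20 ± 0.035 (SE, edgeR adjusted p = 0.0268).

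For the other 27 genes the contrast did not pass, which does not show that the treatments act alike. Their log2 differences, hlh-2 RNAi less lin-32 RNAi, ran from -0.52 to 0.30, with a median absolute value of 0.085. The cpr-4 gene read 243, 199 and 230 CPM in libraries labelled lin-32 RNAi, a difference of -0.15 ± 0.078 (log2, SE, edgeR adjusted p = 0.693), and asp-14 read 78.7, 102 and 98.8 CPM, a difference of -0.028 ± 0.096 (log2, SE, edgeR adjusted p = 0.971). Both lie on the same side of the L4440 values as with the label hlh-2 RNAi. The argk-1 gene read 30.2, 33.2 and 35.3 CPM in the libraries labelled lin-32 RNAi, below all 3 labelled hlh-2 RNAi, with a log2 difference of 0.23 ± 0.054 (SE, edgeR adjusted p = 0.116). The ugt-63 gene read 21.2, 21 and 19.2 CPM there, above all 3 labelled hlh-2 RNAi, with a log2 difference of -0.30 ± 0.069 (SE, edgeR adjusted p = 0.112). The lys-7 gene read 254, 218 and 180 CPM, a log2 difference of 0.27 ± 0.16 (SE, edgeR adjusted p = 0.734). Same-numbered libraries of the treatments deviate together. With the replicate number as a block, in a fit that includes the L4440 libraries, the lys-7 difference was 0.26 and passed (edgeR adjusted p = 0.0092). The block changed no other call among the 29. The hlh-2 and lin-32 transcripts themselves differed between the treatments, by 1.19 ± 0.14 and 1.71 ± 0.23 (log2, SE, edgeR adjusted p = 0.00171 and 0.00666), both higher in libraries labelled hlh-2 RNAi, as did ces-1 by 3.53 ± 0.37 (log2, SE, edgeR adjusted p = 0.000819).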

How the data were processed

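RNA-seq counts of 8 libraries were used. The deposited values are the authors' raw counts, whole numbers of reads for each WormBase gene. The submitters' processing notes name bcl2fastq (1.8.4), TopHat2 (version 2.1.0), featureCounts (version 1.4.6-p4) and build WBcel235. Per the labels' protocols the TruSeq RNA v2 kit was used, which does not mark strand. No source used here gives the counting settings or the annotation release. Names matched 43693 of 46748 genes, and WBcel235 coordinates 46449.

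Genes were filtered with filterByExpr by group and scaled by TMM. A single quasi-likelihood model of the 8 libraries was fitted in edgeR 4.0.16 (R 4.3.3), with Benjamini-Hochberg adjustment over 14272 genes and a threshold of 0.05. SE came from the F statistic. The biological coefficient of variation was 5.19%. The alternatives used DESeq2 1.42.0 and limma 3.58.1, among others. Lists were described by counts and medians only. Members, lists and the rule for naming genes were chosen with earlier results of these data known: hlh-2, lin-32 and every gene that passed are named, up to 4 that passed and 2 others of each list described, and the 3 largest uncalled changes each way. The steps were run on simulated counts drawn independently for each library, so without the correlation described next. No outcome of that run is used here. Same-numbered libraries of the RNAi groups had deviations from their group means that correlated across genes at 0.265, 0.194 and 0.191, so their contrast was also fitted with that block. The labels name no shared day or batch.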

Additional observations from a re-analysis of the deposited data

How the results depend on the processing

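The count of 29 genes that passed, 7 higher and 22 lower, moved by over 1.5 times under 3 settings besides leaving out a library. With no filter on low counts it was 223 (114 higher, 109 lower), with DESeq2 49 (11 and 38), and with the replicate number as a replicate block 72 (37 and 35). All 29 were among those of the fits with no filter and with the block, and 28 among those of DESeq2. With no filter, aqp-8 and gpdh-1, whose groups overlap, passed as well (edgeR adjusted p = 0.017 and 0.03). Passing in that fit is therefore little support. Under the other scalings, a filter of 1 CPM, limma-voom and a fit of the 5 libraries the count ran from 22 to 30. With 1 library left out it ran from 3 to 31, the higher genes from 0 to 7 and the lower from 3 to 24. The lowest counts came without an L4440 library. The hlh-2 value had log2 fold changes of -0.022 to 0.05 with 1 library left out, reversed without replicate 3 of hlh-2 RNAi at -0.022. The cause was not tested. The 29 genes kept their direction under every setting run. Treated and control values of each were fully separate, so leaving out a library could hardly reverse it, and this adds no support. With DESeq2 asp-1, asp-13, clec-50, clec-5, irg-6, gst-38 and W10C8.5 passed as well (DESeq2 adjusted p from 2.2e-05 to 0.038). Library size alone ended 8 of the 29 calls (edgeR adjusted p from 0.052 to 0.104). These were lys-6, clec-66, clec-258, gst-13, F22B8.7, C17H12.6, H20E11.2 and K11H12.4. The fit of the 5 libraries also ended 8 (edgeR adjusted p from 0.053 to 0.125). These were lys-6, clec-68, clec-258, ugt-32, endu-2, F22B8.7, H20E11.2 and K11H12.4. The log2 fold changes of aqp-8 and gpdh-1 changed sign. With 1 library left out aqp-8 ran from -0.27 to 0.78, with -0.071 without L4440 replicate 1 and -0.27 without replicate 1 of hlh-2 RNAi. The gpdh-1 value ran from -0.2 to 0.71, with -0.2 without the latter.

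The L4440 and hlh-2 RNAi libraries of equal number had deviations that correlated at -0.066 and -0.165, so the numbers do not pair these groups. The block is reported here only. With it 43 genes passed besides the 29. They include oac-14, dhs-26, F14H12.3 and R08F11.4 (edgeR adjusted p from 0.00017 to 0.013). They also include lys-4, asp-1, asp-13, clec-50, clec-5, irg-6, gst-38 and W10C8.5 (edgeR adjusted p from 0.0043 to 0.032). Shares of promoters with a motif were not run, because no promoter sequence was used here. Of 2670 genes under 1 CPM, with a median standard error of 0.39, only clec-68 passed.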

Other observations

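Some genes varied widely among the libraries labelled hlh-2 RNAi. R08F11.4 read 3.85 and 2.54 CPM in L4440, 27.3, 4.26 and 3.16 CPM in hlh-2 RNAi replicates 1, 2 and 3, and 22, 6.58 and 5.11 CPM in lin-32 RNAi replicates 1, 2 and 3. The water channel gene aqp-8 read 46.8, 17.3 and 21.5 CPM in hlh-2 RNAi and 47.9, 17.1 and 26.7 CPM in lin-32 RNAi. The glycerol synthesis gene gpdh-1, which responds to osmotic stress, read 16.7, 5.54 and 7.04 CPM and 20.1, 6.47 and 9.50 CPM in the same order. In these 3 genes replicate 1 is the high library of both treatments, at 16.6 and 29.8 CPM in L4440 for aqp-8 and 6.58 and 7.77 CPM for gpdh-1. The pair pud-3 and pud-4 is low there instead. The pud-3 gene read 120 and 101 CPM in L4440, 31.6, 105 and 92.1 CPM in hlh-2 RNAi and 43.9, 118 and 89.3 CPM in lin-32 RNAi, and pud-4 read 8.84, 25.2 and 23.7 CPM and 11.3, 29.2 and 21 CPM in the RNAi groups. The genes were picked for this spread after their values were seen. In the fit with the filter and no block, none of the 5 passed between hlh-2 RNAi and L4440 (edgeR adjusted p = 0.768 for R08F11.4, 0.955 for aqp-8, 0.925 for gpdh-1, 0.874 for pud-3 and 0.899 for pud-4).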
